A study of Quercus suber with 11 samples.

Results

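Homologs of fatty acid oxidizing enzymes were followed in the innercork of cork oak (Quercus suber) along the growing season. They comprised cytochrome P450 enzymes of the CYP86A, CYP86B and CYP96A subfamilies and oxidoreductases of the glucose-methanol-choline (GMC) family to which HOTHEAD belongs. Loci were taken by their best Arabidopsis hit, 1 identifier per locus in the deposited values, with 10 identifiers searched (CYP86A1 AT5G58860, CYP86A2 AT4G00360, CYP86A4 AT1G01600, CYP86A7 AT1G63710, CYP86A8 AT2G45970, CYP86B1 AT5G23190, CYP86B2 AT5G08250, CYP96A1 AT2G23180, HOTHEAD AT1G72970 and the GMC oxidoreductase AT5G51950). Of these, 7 had at least 1 locus, and together they gave 12 of the 32024 loci, 30676 of which carried an Arabidopsis identifier. No locus had CYP86A4, CYP86A7 or CYP86B2 as its best hit. Each locus is therefore a homolog by protein similarity, and its enzymatic activity in cork oak was not measured here.

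Innercork is the living phellem (cork) next to the phellogen, the cork cambium, together with phellogenic tissue that comes off with the plank. It came from virgin cork, the first cork of the trunk, of wild trees growing in 1 forest. The design set 4 trees harvested in April, at the start of cork growth, beside 3 trees of June, when growth is fastest, and 4 of July, when the season is advanced. A different tree was sampled each time, all were untreated, and each gave 1 polyA RNA-seq library, so month was compared over trees and differences between months cannot be told apart from whatever else changed in the forest between harvests.

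Suberin is the polyester that makes cork walls impermeable, and most of its aliphatic monomers carry an oxygen at the far (omega) end of the chain. Enzymes of the CYP86 clan hydroxylate that omega carbon in the endoplasmic reticulum. The omega-hydroxy acids can then be oxidized to dicarboxylic acids or joined to glycerol and exported to the wall. In Arabidopsis the same chemistry serves suberin in root and seed coat and cutin in the epidermis, with different family members in each.

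The deposited values are regularized log (rlog) values, log2 of the normalized read count with genes of few reads shrunk toward their mean. Depth per library cannot be read back from them, so precision is given by the spread between trees. An rlog value is not divided by transcript length, so values are compared between trees for the same locus and not between loci as amounts of RNA. A difference between month means of rlog is a log2FC. It was tested with limma on the 22426 loci that reached a minimum mean rlog, log2 of 10, and p-values were adjusted over all of them by the Benjamini-Hochberg method. DEGs had to reach an adjusted p of 0.01 or less together with a log2FC beyond 1 in either direction.

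April replicate 2 stood apart from its month over the whole table. The mean correlation of its deviations from the all-tree means with those of the other April trees was 0.00248, whereas the other April trees had 0.151 to 0.258. In June and July the range was -0.0674 to 0.0836. Because deviations are from the all-tree means, this correlation also depends on how far a month lies from the others. It therefore does not compare the spread of trees between months. Weights estimated per tree by limma were 0.26 for April replicate 2 and 0.397 for July replicate 4, and 0.755 to 1.96 for the 9 other trees. Values without April replicate 2 or with tree weights are given beside the results they change.

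Of the 12 loci, 6 passed the minimum level, all of them protein-coding by name in the RefSeq gene table. They were 1 homolog each of CYP86A1, CYP86B1, CYP86A2 and the GMC oxidoreductase AT5G51950, and 2 homologs of CYP96A1. The locus just inside the minimum, the CYP96A1 homolog LOC112025226, had a mean rlog of 8.41, and the one just outside, the CYP86A8 homolog LOC112024208, had 2.53. Below the minimum, the 6 remaining loci stayed between -1.95 and 3.47 in every tree and were not tested. They were the single CYP86A8 locus, both HOTHEAD loci, and second loci for CYP86A2, CYP86B1 and AT5G51950, and 3 of the 6 were pseudogenes in the RefSeq gene table. CYP86A8 (LACERATA) and HOTHEAD act in the epidermis of Arabidopsis, where their mutants have fused organs. LOC112024208 had 2.83, 3.47, 2.42 and 2.61 in the 4 April trees, against 2.31 to 2.51 in every June and July tree. HOTHEAD was represented by LOC112029923, a long noncoding RNA by its biotype, at 2.26 to 2.51, and by the protein-coding LOC112040673, at -1.95 to -1.93. The pseudogene LOC111988100 (CYP86A2) lay at 1.18 to 1.21 in 10 trees and at 1.86 in July replicate 4, where the tested CYP86A2 homolog was also at its highest.

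In June innercork, 5 of the 6 tested loci had their highest month mean, against 30.2% of all loci tested. Only the CYP96A1 homolog LOC112025226 was highest in April, as were 41.9% of all loci. The median June/April log2FC over the 6 loci was 0.93, against -0.02 over all loci, and 5 of the 6 values were above 0, beside 48.0% of all loci. For July/April the median was 0.44, against -0.02, with 5 of 6 above 0 beside 48.5%, and for July/June it was -0.50, against -0.00, with 0 of 6 above 0 beside 50.0%. In June/April 1 of the 6, the GMC homolog, was a DEG, beside 1.46% of all loci. At an adjusted p of at most 0.05 the CYP86B1 homolog joined it, beside 9.81% of all loci. No locus was a DEG in July/April, where 2.04% of all loci were, and none reached an adjusted p of 0.05, which 12.0% did. In July/June the limma test called 1 locus of the whole table, 0.00446%, and none of these. At the same thresholds the study's own test of read counts (DESeq2) reported more DEGs in each of the 3 comparisons. The calls and shares given here thus belong to limma on rlog values. The study also names CYP86A1 and CYP86B1 among suberin genes with a June maximum in these libraries, so for them that order is no separate result. An unadjusted p under 0.05 was found for 3 of the 6 loci in June/April (28.3% of all loci), for 3 in July/April (30.0%) and for 2 in July/June (8.93%).

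**Figure D1:**
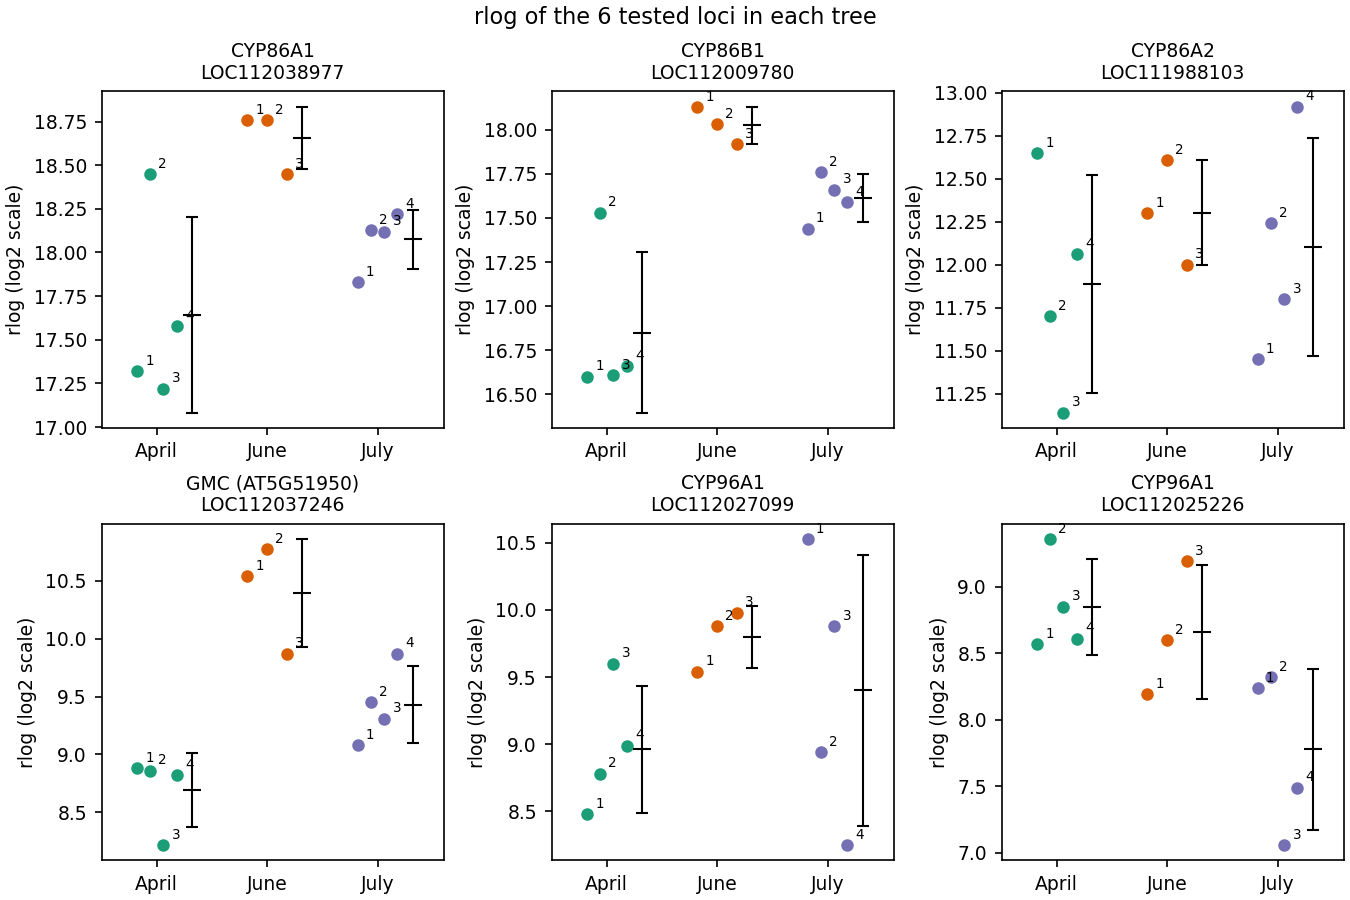
Values (rlog, log2 scale) of the 6 tested loci by month, 1 point per tree numbered by replicate, with the mean and SD of each month beside the points. For CYP86A1, CYP86B1 and the GMC homolog every June tree lies above every July tree, while April replicate 2 stands above the other April trees for CYP86A1 and CYP86B1.

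CYP86A1 (HORST in Arabidopsis) hydroxylates long-chain fatty acids for root suberin. Its homolog LOC112038977 (AT5G58860) had rlog values of 17.32, 18.45, 17.22 and 17.58 in the April trees, 18.76, 18.76 and 18.45 in the June trees, and 17.83, 18.13, 18.12 and 18.22 in the July trees. All June trees were above all July trees, but April replicate 2 was as high as the lowest June tree, and the other April trees were the lowest of the series. On the linear scale its mean was 217400 ± 95800 over the April trees (SD, n = 4), 416000 ± 49900 over the June trees (n = 3) and 277500 ± 31200 over the July trees (n = 4). That made up 0.622 ± 0.178% of the summed linear values of an April tree, 1.02 ± 0.0937% of a June tree and 0.731 ± 0.0692% of a July tree.

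The June/April log2FC of CYP86A1 was 1.02 (SE 0.31, 95% interval 0.34 to 1.70), a fold change of 2.03, with a limma p of 0.00732 before and 0.0623 after Benjamini-Hochberg adjustment, and was not called. July/April gave 0.43 (SE 0.28, adjusted p = 0.335) and July/June -0.58 (SE 0.31, adjusted p = 0.639). The values against April depended on April replicate 2. Without that tree June/April was 1.29 with an adjusted p of 0.00254, which is a DEG, and July/April was 0.70 (adjusted p = 0.0175), whereas leaving out any of the other trees gave 0.88 to 1.12 in June/April. Quantile normalization, which gives every tree the same distribution of values, lowered June/April to 0.35 (adjusted p = 0.252) and July/April to 0.09, and gave -0.26 for July/June. The June/April adjusted p lay between 0.00216 and 0.252 over all alternatives.

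CYP86B1 (RALPH in Arabidopsis) hydroxylates saturated very-long-chain acids for suberin of roots and seed coats. LOC112009780, its homolog (AT5G23190), had values of 16.60, 17.53, 16.61 and 16.66 in April, 18.13, 18.03 and 17.92 in June, and 17.44, 17.76, 17.66 and 17.59 in July. Here the 3 months formed steps, with all June trees above the trees of either other month and with April replicate 2 alone among the July values. Linear month means were 123300 ± 44300 for the April trees, 267600 ± 18800 for June and 201000 ± 18200 for July. As a share of the summed linear values this was 0.355 ± 0.0733%, 0.655 ± 0.0143% and 0.53 ± 0.0542% in the same order.

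The June/April log2FC of CYP86B1 was 1.18 (SE 0.25, 95% interval 0.62 to 1.73), 2.26-fold, with an adjusted p of 0.0193. In July/April it was 0.76 (SE 0.23, 1.69-fold, adjusted p = 0.0586) and in July/June -0.42 (SE 0.25, adjusted p = 0.694). Without April replicate 2 the June/April value was 1.40 with an adjusted p of 0.000892, a DEG, and the July/April value was 0.99 with an adjusted p of 0.00159. Quantile normalization gave 0.65 (adjusted p = 0.0142) in June/April and -0.04 in July/June. The June/April adjusted p ranged from 0.000498 to 0.0806 over the alternatives.

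With weights estimated per tree, CYP86A1 (1.20, adjusted p = 0.00234) and CYP86B1 (1.35, adjusted p = 0.000498) were both DEGs in June/April. Over all 22426 loci the weights gave 1306 DEGs in June/April, against 327 without them.

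Among the 6 loci the GMC oxidoreductase homolog had the largest log2FC in June/April. GMC enzymes are flavoproteins that oxidize alcohols, and HOTHEAD is the member tied to the oxidation of omega-hydroxy acids in Arabidopsis cutin. For AT5G51950, a relative of HOTHEAD, no substrate is given in the sources used here. LOC112037246, the AT5G51950 homolog, had values of 8.88, 8.86, 8.22 and 8.82 in the April trees, 10.54, 10.77 and 9.87 in the June trees, and 9.08, 9.45, 9.31 and 9.87 in the July trees. The April trees were the 4 lowest of the series, and every June tree was higher than every April tree. The lowest June tree and July replicate 4 both read 9.87 at this rounding, with June replicate 3 marginally higher. As normalized read counts on the linear scale, it averaged 421.5 ± 82.2 over the April trees, 1391 ± 414 over the June trees and 702.1 ± 167 over the July trees.

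LOC112037246 rose in June/April, with a log2FC of 1.70 (SE 0.26, 95% interval 1.12 to 2.27, or 3.25-fold with an interval of 2.18 to 4.83) and an adjusted p of 0.00492. In July/April its log2FC was 0.73 (SE 0.24, 1.66-fold, adjusted p = 0.0724). In July/June it was -0.97 (SE 0.26, 0.511-fold), with a p of 0.00364 that became 0.317 after adjustment. The June/April call was close to the threshold. It was lost on leaving out April replicate 1, 3 or 4 or June replicate 1 or 2 (adjusted p of 0.0108 to 0.0294), in a fit of only the April and June trees (0.0169) and with the replicate number as a block (0.0116, or 0.0236 with the number in the library name), while the log2FC stayed between 1.51 and 1.96 in all alternatives. Without April replicate 2 it was 1.75 (adjusted p = 0.00431). The pseudogene LOC112037237, with the same best hit, was at -1.95 to -1.94 in every tree.

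**Figure D2:**
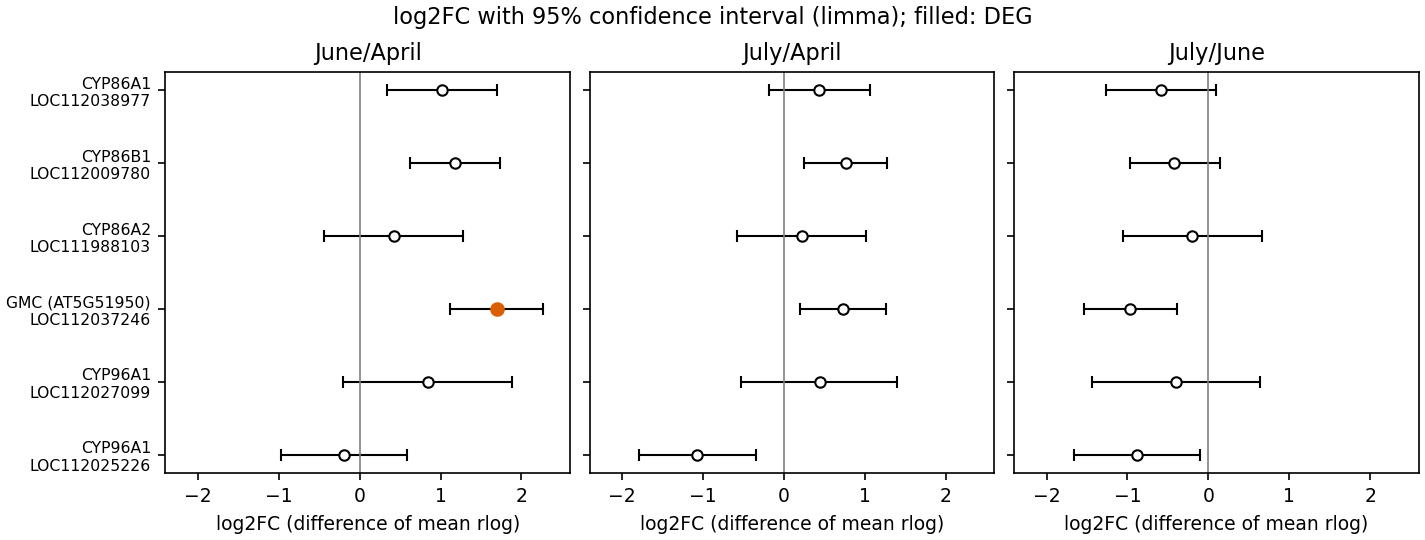
log2FC (difference of mean rlog) of the 6 tested loci in June/April, July/April and July/June, with 95% confidence intervals from limma over all 11 trees and a filled symbol for a DEG. Only the GMC homolog in June/April (1.70) is filled, and all 6 July/June values are below 0.

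CYP86A2 (ATT1 in Arabidopsis) makes cutin monomers in leaves. Its homolog LOC111988103 (AT4G00360) had values of 12.65, 11.70, 11.14 and 12.06 in April, 12.30, 12.61 and 12.00 in June, and 11.45, 12.24, 11.80 and 12.92 in July. The months overlapped completely, with the lowest value in an April tree and the highest in July replicate 4. The log2FC was 0.42 in June/April (SE 0.39, 95% interval -0.44 to 1.28, adjusted p = 0.51), 0.22 in July/April (SE 0.36, -0.58 to 1.01, adjusted p = 0.729) and -0.20 in July/June (SE 0.39, adjusted p = 0.939). These intervals still allow a change of more than 2-fold in June/April.

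The CYP96A subfamily is related to the CYP86 enzymes, and CYP96A15 of Arabidopsis hydroxylates wax alkanes in the middle of the chain. For CYP96A1 itself no substrate is given in the sources used here. Both cork oak homologs are protein-coding, and how reads that fit both were counted is not given in the sources used here. LOC112027099 (AT2G23180) had values of 8.48, 8.78, 9.60 and 8.99 in April, 9.54, 9.88 and 9.98 in June, and 10.53, 8.94, 9.88 and 8.25 in July. The July trees spanned the whole range of the series and covered both other months. The log2FC was 0.84 in June/April (SE 0.47, 95% interval -0.21 to 1.88, adjusted p = 0.271), 0.44 in July/April (SE 0.44, adjusted p = 0.54) and -0.40 in July/June (SE 0.47, adjusted p = 0.879). Single July trees moved these values. July/April was 0.06 without July replicate 1 and 0.82 without July replicate 4, and July/June was -0.78 and -0.02 without the same trees.

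LOC112025226, the other CYP96A1 homolog, had values of 8.57, 9.36, 8.85 and 8.61 in April, 8.19, 8.60 and 9.19 in June, and 8.24, 8.32, 7.06 and 7.49 in July. The 4 July trees were below the 4 April trees, and June lay across both. Its July/April log2FC was -1.07 (SE 0.33, 95% interval -1.79 to -0.35, 0.476-fold), with a p of 0.00785 and an adjusted p of 0.058 that missed both thresholds. With single trees left out this log2FC lay between -1.25 and -0.83 (adjusted p of 0.0548 to 0.129). July/June gave -0.88 (SE 0.35, adjusted p = 0.496) and June/April -0.19 (SE 0.35, adjusted p = 0.763).

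Counted by groups that did not overlap, 2 of the 6 loci (CYP86B1 and GMC) were higher in every June tree than in every April tree, as were 13.9% of all loci. In July/April the GMC homolog was higher in every tree, beside 8.7% of all loci, and LOC112025226 was lower, beside 8.78%. In July/June, 3 of the 6 (CYP86A1, CYP86B1 and GMC) were lower in every July tree, beside 5.58% of all loci, although none of the 6 passed the adjusted test there.

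**Figure D3:**
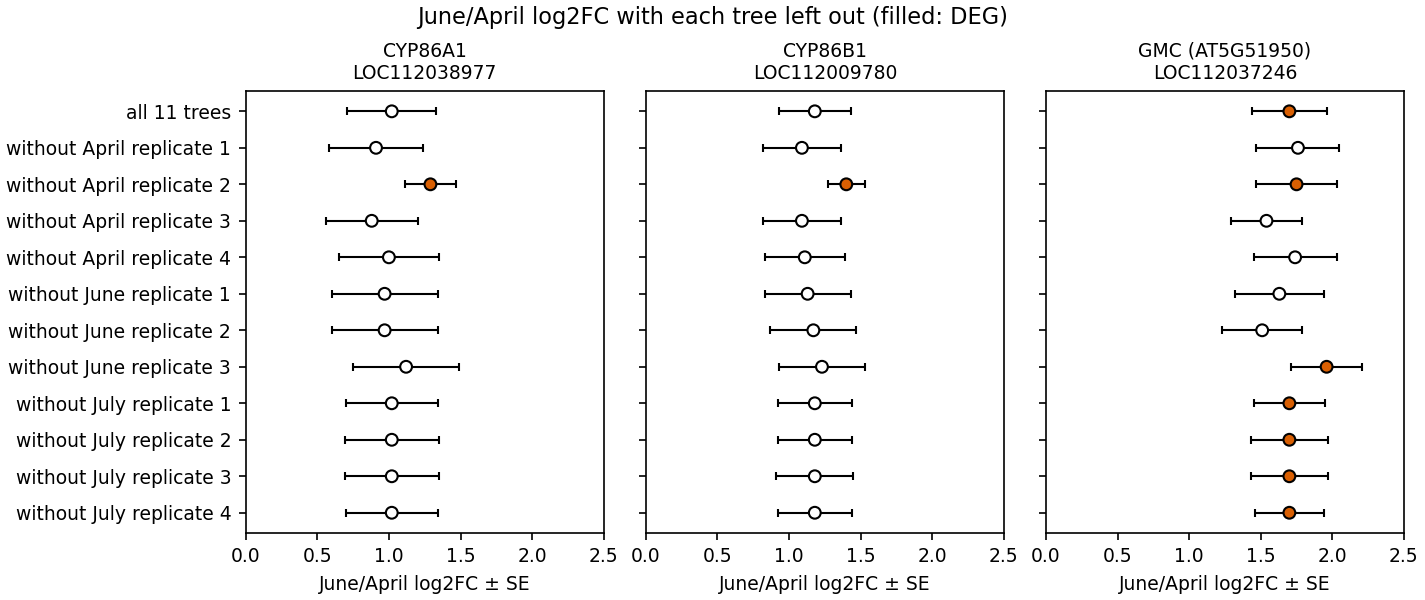
June/April log2FC ± SE of the CYP86A1, CYP86B1 and GMC homologs with all 11 trees and with each tree left out, filled where the locus was a DEG. Leaving out April replicate 2 makes DEGs of CYP86A1 (1.29) and CYP86B1 (1.40), and 5 of the 11 omissions end the call of the GMC homolog.

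The loci also differed in how much trees of the same month varied. The residual SD was 0.294 for CYP86B1, 0.364 for the GMC homolog and 0.37 for CYP86A1, which 48.3%, 61.2% and 62.1% of all tested loci undercut. It was 0.501 for LOC112025226, 0.57 for CYP86A2 and 0.69 for LOC112027099, with 75.9%, 80.4% and 86.0% of tested loci having a smaller one.

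The relation between loci was examined over the 11 trees, for all 15 pairs of the 6 loci, with permutation tests of 100000 resamples and adjustment over the 15 pairs. Trees were permuted across months, so these p-values include the differences between months given above. Correlations within months were not tested. CYP86A1 and CYP86B1 moved together, with a Pearson r of 0.944 (adjusted permutation p = 0.00075) and a Spearman rho of 0.864 (adjusted permutation p = 0.00705). The r was 0.879 without April replicates 1 and 3, the trees farthest from the median of CYP86A1. Within months, as deviations from the month means, it was 0.947, and 0.701 once April replicate 2 was left out. The GMC homolog followed CYP86A1 with an r of 0.851 (adjusted permutation p = 0.0078, rho 0.791 with 0.0265) and CYP86B1 with an r of 0.838 (adjusted permutation p = 0.00895, rho 0.891 with 0.00705). Without the same 2 trees these were 0.796 and 0.783. Within months they were 0.53 and 0.312, or 0.832 and 0.437 without April replicate 2. No other pair passed an adjusted p of 0.05 by r or rho, the lowest for r being 0.155 for CYP86A2 and the GMC homolog (r = 0.622, rho = 0.555). The 2 CYP96A1 homologs had an r of 0.0111 (rho 0.0636).

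Within a tree, the difference between the rlog of 2 loci is free of any factor that scales both alike. These differences were examined for 2 pairs chosen after the values were seen, with 6 two-sided exact permutation tests and adjustment over the 6. CYP86B1 minus CYP86A1 was -0.71, -0.92, -0.61 and -0.92 in April, -0.63, -0.73 and -0.53 in June, and -0.39, -0.37, -0.46 and -0.64 in July. The month means were -0.79 ± 0.15 (SD, n = 4), -0.63 ± 0.10 (n = 3) and -0.46 ± 0.12 (n = 4). July and April overlapped by 1 tree each, the difference between their means was 0.33, and the exact p was 0.0571 over 70 splits of the trees, or 0.114 after adjustment. June/April (0.16) and July/June (0.17) had exact p values of 0.257 and 0.143.

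For the CYP96A1 homologs, LOC112027099 minus LOC112025226 was -0.09, -0.58, 0.75 and 0.38 in the April trees, 1.35, 1.28 and 0.80 in the June trees and 2.29, 0.62, 2.82 and 0.77 in the July trees. Every June tree exceeded every April tree, and the July trees split into a pair above all others and a pair within the April range or just above it. The month means differed by 1.02 in June/April (exact p = 0.0571 over 35 splits, adjusted 0.114), by 1.51 in July/April (exact p = 0.0571, adjusted 0.114) and by 0.48 in July/June (exact p = 0.457), all with the higher mean in the later month. None of the 6 tests passed 0.05 after adjustment. The smallest exact p that these splits allow is 0.0286, so a single test could not have passed the adjustment by itself.

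**Figure D4:**
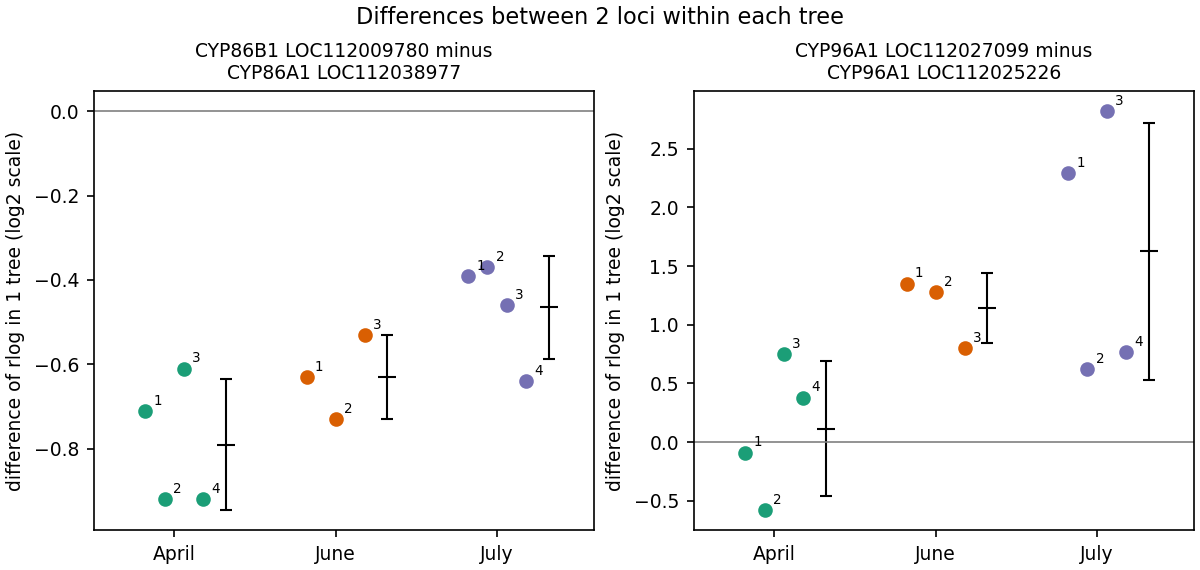
Difference in rlog between 2 loci in the same tree (log2 scale), for CYP86B1 minus CYP86A1 on the left and for the CYP96A1 homologs LOC112027099 minus LOC112025226 on the right, 1 point per tree with the mean and SD of each month. CYP86B1 minus CYP86A1 averaged -0.79 in April and -0.46 in July, and the CYP96A1 difference had means of 0.12 (April), 1.14 (June) and 1.62 (July).

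The loci whose profile over the 11 trees was most like each of these are given as a description. For CYP86A1 they were LOC112008842 (best hit the exocyst subunit EXO70G1, r = 0.974), LOC112030045 (the papain-like protease RD21B, r = 0.974), LOC111992190 (the ABC transporter ABCG10, r = 0.971), LOC112002550 (a RING finger protein, r = 0.964) and LOC112039708 (a 6-phosphogluconate dehydrogenase, r = 0.96). In that order of likeness CYP86B1 was 16th and the GMC homolog number 312 among all tested loci. For CYP86B1 the nearest were LOC112036416 (AT5G61340, r = 0.986), LOC111989426 (the polyubiquitin UBQ10, r = 0.983), LOC112025059 (AT4G37880, r = 0.977), LOC112039684 (the galacturonosyltransferase GAUT9, r = 0.975) and LOC112039350 (a stearoyl-ACP desaturase, r = 0.975), with CYP86A1 number 61 and the GMC homolog number 772. The GMC homolog was most like LOC112040503 (the cationic amino acid transporter CAT2, r = 0.952), LOC112002973 (the glycosyltransferase UGT85A3, r = 0.934), LOC112022466 (the ABC transporter ABCG40, r = 0.932), LOC112035038 (AT1G49310, r = 0.929) and LOC112034994 (the blue copper-binding protein BCB, r = 0.927). CYP86A2 had weaker partners, with LOC111991680 (AT5G39220) at 0.917, LOC112010391 (AT3G06130) at 0.897, LOC112005622 (AT1G56320) at 0.895, LOC111997028 (AT1G66510, a pseudogene) at 0.885 and LOC112015413 (AT3G55290) at 0.872.

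The homologs of fatty acid oxidizing enzymes followed above were set beside other steps of suberin deposition. Of the tested homologs, only those of CYP86A1 and CYP86B1 have an Arabidopsis counterpart described above as hydroxylating fatty acids for suberin. The list for the other steps held 35 Arabidopsis identifiers, for chain activation and elongation, acyl transfer, reduction, feruloylation, transport, polymerization and regulation. Of the 35 identifiers, 19 had at least 1 locus. Together they gave 43 loci, 32 of them tested, with only 1 tested for reduction and 2 for activation. June was the highest month for 24 of the 32 (75.0%, against 30.2% of all loci), the June/April median log2FC was 0.44 and 26 of 32 values were positive, beside 48.0% of all loci. The study reports a June maximum in these same libraries for highly expressed suberin genes, among them GPAT5, KCS2 and ASFT of this list. The list was chosen with such results known, so its June share is no independent result. None of the 32 was a DEG in June/April, and 4 (12.5%) reached an adjusted p of 0.05, all higher, a share near the 9.81% of all loci. These were homologs of the GDSL lipase GELP96 (LOC111989476, adjusted p = 0.0199), the acyltransferase GPAT6 (LOC111983156, log2FC 1.93, SE 0.49, adjusted p = 0.0351) and the regulators MYB93 (LOC112033310, adjusted p = 0.0354) and MYB9 (LOC112006609, adjusted p = 0.0444). The homolog of GPAT5, which joins suberin acids to glycerol in Arabidopsis, averaged 16.53 in June and 16.07 in April (LOC112028279, adjusted p = 0.409). The count of June/April DEGs was 1 without April replicate 2, the elongase KCS2 homolog LOC112030764 (1.03, adjusted p = 0.00285), and 1 with tree weights, the GPAT6 homolog (2.01, adjusted p = 0.00931). Without April replicate 2 and July replicate 4 together it was 2, the KCS2 homolog and a KCS1 homolog, LOC112008331 (1.03, adjusted p = 0.0087). Over all 22426 loci these settings gave 934, 1306 and 1188 June/April DEGs in the same order. In July/April 14 of the 32 values were positive and 18 negative with a median of -0.05, and the GELP96 homolog was higher at an adjusted p of 0.0272. A second MYB9 homolog, LOC112034724, was the only DEG of the list in July/April and fell by 2.61 (SE 0.44, adjusted p = 0.00643). This call was lost in the fit of only 2 months, with the block and without April replicate 2 and July replicate 4 together. It was also lost on leaving out any single tree other than April replicates 2 and 3 and July replicate 3 (adjusted p up to 0.023). With tree weights the homolog of FAR4, a fatty acyl reductase, was also a DEG in July/April (LOC112006016, -1.75, adjusted p = 0.00683). Without April replicate 2 and July replicate 4 together the FAR4 homolog was the only DEG of the list in July/April (-1.98, adjusted p = 0.00822). In July/June 28 of the 32 values were negative with a median of -0.58, and none passed the test.

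Other P450 and GMC families with members that oxidize fatty acids gave 23 loci for 12 of 28 identifiers. The 11 that were tested were all P450s, of the CYP94 (3), CYP704 (6) and CYP86C (2) subfamilies. June was the highest month for 3 of the 11 (27.3%), all of them homologs of CYP94B1 or CYP94B3. Whether these 3 act on fatty acids was not tested. The median log2FC was 0.14 for June/April, -0.29 for July/April and 0.03 for July/June. The CYP704B1 homolog LOC112005550 was the single DEG. CYP704B1 hydroxylates fatty acids for the pollen wall in Arabidopsis. Its homolog had values of 10.01, 10.11, 9.68 and 10.39 in April, 8.20, 8.29 and 7.97 in June, and 8.27, 9.42, 8.39 and 7.84 in July, and all April trees were above all others. LOC112005550 had a log2FC of -1.89 in June/April (SE 0.32, adjusted p = 0.0077) and of -1.57 in July/April (SE 0.30, adjusted p = 0.00945), and so was lower in both later months. Both calls were near the threshold, with adjusted p values up to 0.0345 and 0.033 under the alternatives. The June/April call held on leaving out April replicate 2 or July replicate 2 or 4 and was lost without any other single tree, and the July/April call held only without July replicate 2.

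Because bulk innercork mixes tissues, fewer cells of a type and less RNA per cell cannot be told apart in these values. All 5 phellem markers were expressed, and their summed linear values were 463000 to 850000 in April trees, 739000 to 883000 in June trees and 465000 to 599000 in July trees. These 5 genes are also in the list for suberin deposition, so their sums repeat part of that result and are no separate measure of phellem. Phellogen and cambium markers, with 3 of 4 tested and PXY below the minimum, summed to 13900 to 21400 in April, 6900 to 7980 in June and 6360 to 14000 in July. Phloem markers (2 of 3 tested, APL without a locus) were at 4910 to 13300, 19000 to 30300 and 5810 to 28200 in April, June and July trees, and xylem markers (4 of 5 tested, XCP2 without a locus) at 994 to 2550, 3100 to 5260 and 2570 to 19100 in the same order. All June sums thus lay above all July sums for phellem and above all April sums for phloem and xylem, and below all April sums for phellogen and cambium. These sums follow the most abundant loci, and some markers did not share the order of months. FAR4 (phellem) was lower in July (9.66) than in June (10.60), as the sum was, but was highest in April (10.97). SUC2 (phloem) had 5.65 in June against 7.03 in April. XCP1 (xylem) had 5.33 in April, 5.25 in June and 4.46 in July, whereas CESA4, CESA7 and CESA8 were highest in July (10.03, 11.56 and 11.27). The study reports these CESA homologs as higher in July cork and proposes a possible role in latecork walls. Values from xylem and from cork cells cannot be told apart in the xylem sum. Of 4 green tissue markers 2 had a locus, LHCB1.3 at a mean rlog of -1.94 and LHCB3 just above the minimum at 4.14, and RBCS1A and PSBO had none (summed values of 18.6 to 22.8, 13.3 to 17.0 and 15.6 to 20.5 in the same order of months). Of the epidermis markers PDF2 was tested (980 to 1350, 771 to 811 and 674 to 879), while ATML1, which defines that layer, was at a mean rlog of 0.96. Loci with the biotype rRNA took 1.98 to 4.51% of the linear sum in April trees, 5.4 to 9.26% in June trees and 3.76 to 14.7% in July trees, the highest being July replicate 4. The part of these tissues and of the rRNA share in the values of the 6 loci was not tested.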

How the data were processed

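Innercork RNA-seq of 4 April, 3 June and 4 July trees was analysed from the rlog values (log2 scale) that the authors deposited, with 32024 loci. Per the study's methods the authors checked reads with FastQC 0.11.5, trimmed adapters, removed ribosomal reads, mapped to CorkOak1.0 with STAR 2.5.3a and transformed counts with the rlog of DESeq2, and assigned each locus 1 Arabidopsis identifier by BLASTP. Read totals per library cannot be recovered from rlog values, so the spread between trees (median residual SD 0.302) gives the precision.

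Tests used limma 3.58.1 in R 4.3.3 (month as factor, all 11 trees, a mean-dependent variance prior of 2.38 degrees of freedom) and were tested on simulated data. Intervals are 95%. Tests within trees were exact permutation tests. Python 3.11.15, pandas 2.3.3 and matplotlib 3.10.9 made tables and figures. Every member locus is accounted for. Values per tree are given for tested members, and the 5 most correlated loci for the 3 with the highest mean rlog and any DEG. Called loci of the 2 other lists are named. The GPAT5 value was chosen after it was seen. Members and lists were chosen with earlier results of these data known. The RefSeq gene table belongs to Cork oak 2.0 and served for biotypes by name, without coordinates. The alternatives were the minimum level (none, or 50), a pseudocount of 1, 2 normalizations, the variance prior, tree weights, fits of 2 months, a replicate block (by the titles, and by the library names), thresholds and leaving out each tree. Replicate numbers did not pair the trees.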

Additional observations from a re-analysis of the deposited data

Results flagged for a closer look

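In 12 groups of 4 trees examined (the 6 tested loci in April and in July), 2 trees lay far from the rest of their month by Dixon's 95% criterion for the gap to the nearest tree, which chance exceeds in about 1 in 20 groups. The CYP86B1 homolog LOC112009780 had 17.53 in April replicate 2, against 16.60 to 16.66 in the other April trees, and its gap was 0.935 of the range. The same tree was also the highest of April for CYP86A1 (18.45, against 17.22 to 17.58) and for the CYP96A1 homolog LOC112025226 (9.36, against 8.57 to 8.85). The GMC homolog LOC112037246 had 8.22 in April replicate 3, against 8.82 to 8.88 in the other April trees, with a gap of 0.909 of the range. Without that tree its June/April log2FC was 1.54 with an adjusted p of 0.0108 (limma). The causes were not tested.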

How the results depend on the processing

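The number of these loci called DEGs in June/April, 1 in the analysis as reported, was 3 with tree weights, 3 without April replicate 2 and July replicate 4 together (an alternative added after the data were seen), 2 under either rule with an adjusted p of at most 0.05, 0 in a fit of only the 2 months and 0 to 3 when single trees were left out. It was 3 without April replicate 2 and 0 without April replicate 1, 3 or 4 or June replicate 1 or 2. Over all 22426 loci tested the June/April count moved as well. It was 327 as reported, 1306 with tree weights, 934 without April replicate 2 and 1188 without April replicate 2 and July replicate 4. At an adjusted p of at most 0.05 it was 2199 without a minimum log2FC and 931 with one. A fit of only the 2 months gave 129, and the single omissions that left 0 of these loci gave 24 to 220. For the 6 loci, the counts of 0 in July/April and July/June were 0 under every alternative run. Without April replicate 2, CYP86B1 had a July/April log2FC of 0.99 and an adjusted p of 0.00159. June was the highest month for 5 loci in the analysis as reported and for 4 to 6 when single trees were left out.

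With the replicate number as a block, 0 of the loci were called in June/April, where the GMC homolog had a log2FC of 1.79 and an adjusted p of 0.0116. The library names number 2 of the June trees differently, and with those numbers as the block (added after the data were seen) the count was also 0, with 1.73 and 0.0236 for GMC. Trees with the same number had correlations of their deviations between -0.0772 and 0.211 under both numberings, so the numbers were not taken to pair trees. Over all loci, 55 DEGs in June/April were left with the block of the titles and 81 with that of the library names, against 327 without a block.

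The direction changed only for small differences. The July/April log2FC of CYP86A2 (0.22) was -0.04 with tree weights, -0.12 without April replicate 2 and July replicate 4, and -0.06 to 0.47 when single trees were left out, with -0.03 without April replicate 3. Its July/June value (-0.20) ranged from -0.47 to 0.02, and the June/April value of LOC112025226 (-0.19) from -0.45 to 0.05. The July/April difference between the CYP96A1 homologs was 1.84 with an exact p of 0.0286 without July replicate 2. Over all loci and at the thresholds of the main analysis, June/April DEGs ranged from 24 (without June replicate 1) to 1306 (tree weights). The causes were not tested. Read totals are not part of rlog values, so no limit by depth was set.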

Other observations

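Within months, some of the 6 loci varied against each other. As deviations from the month means over the 11 trees, CYP86A2 and the CYP96A1 homolog LOC112027099 had a correlation of -0.864, and CYP86A2 and the GMC homolog one of 0.831. July replicate 4 had the highest July value for CYP86A2 (12.92) and GMC (9.87) and the lowest for LOC112027099 (8.25), and it also had the largest rRNA share, 14.7%. Over all differences between trees and months these pairs had r of -0.553 (rho -0.527, adjusted permutation p = 0.239) and 0.622 (adjusted permutation p = 0.155). Both within-month values were picked after they were seen from 15 pairs and have no test of their own.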
